A study of Mus musculus with 9 samples.

Results

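The genes described here encode plasma proteins of the complement and clotting systems, which are made largely by the liver. They comprise 37 named genes, 19 of complement and 18 of clotting and clot lysis, and were found by the gene name that the array files give to each probe. Of these, 36 have a probe, out of 27376 gene names on the array, and all 36 were tested among 17647 features (18 complement and 18 clotting genes). C1r, the protease that activates C1s, is the gene with no probe of that name. Liver RNA came from male C57bl/6J mice aged 16 weeks, with 3 livers per group and 1 array per liver. The HFD+APS group ate, for 12 weeks, a high-fat diet (fat at 60 kcal%) mixed with Astragalus polysaccharides (APS, sugar polymers from a plant root of Chinese medicine), with 40 g of APS per kg. The HFD group ate the high-fat diet alone, and the chow group ate chow for the same time. The labels give 24 mice in the study, and the p-values measure the spread between the 3 livers per group whose arrays are used here.

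Complement is a cascade of proteases that marks and lyses microbes. It starts from antibody (C1), from sugar-binding lectins with their MASP proteases, or from C3 with factors B and D, and it ends in a membrane pore built from C5b, C6, C7, C8 and C9. Clotting is a second protease cascade, in which thrombin turns fibrinogen into fibrin. Proteins C and S restrain it and plasmin dissolves the clot. Hepatocytes secrete most of these proteins, and several, such as C3, C4 and fibrinogen, belong to the acute phase response, in which liver secretion shifts during inflammation. Factor D (Cfd, also called adipsin) is best known as a product of fat cells.

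Each signal comes from a probe of 60 bases, printed on the array to pair with 1 transcript. The probes of the genes on which the results turn most are shown in the 5′ to 3′ direction with their mm9 positions and strands, all in lower case, since no part of a probe was set apart. C6 and C8b carry the result on the membrane pore, Pros1 one of the results on clotting in HFD livers, and F11 and Klkb1 the pattern that follows the slides. For F9 the second probe is shown, which was not in the fit and did not pass on its own; the fitted F9 probe is given by its position alone.
C6, chr15:4748363-4748422 (+): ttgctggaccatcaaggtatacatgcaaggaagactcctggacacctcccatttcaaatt
C8b, chr4:104476999-104477058 (+): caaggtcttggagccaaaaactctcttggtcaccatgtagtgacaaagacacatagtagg
F9, second probe, chrX:57282531-57282590 (+): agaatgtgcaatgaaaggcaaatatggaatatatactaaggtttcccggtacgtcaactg
Pros1, chr16:62928674-62928733 (+): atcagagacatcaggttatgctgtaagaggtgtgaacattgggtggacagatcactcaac
F11, chr8:46326753-46326812 (-): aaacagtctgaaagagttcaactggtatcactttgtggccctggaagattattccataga
Klkb1, chr8:46357683-46357742 (-): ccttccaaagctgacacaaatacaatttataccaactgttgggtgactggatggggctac
F11 and Klkb1 encode related proteases, and their probes share at most 21 of 60 bases in any ungapped alignment. Whether a probe lies in a coding exon or a UTR was not determined here. C1s, F13b, Cfd and the fitted F9 probe were read at chr6:124480828-124480887, chr1:141420037-141420096, chr10:79355302-79355361 and chrX:57282894-57282953.

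Signals are given as log2 values relative to the 75th percentile of all probes on the same array, so that 0 is the upper quartile and 1 unit is a 2-fold difference. That percentile lay between 210 and 265 intensity units on the 9 arrays. All 36 genes were well above background on each of the 9 arrays. A gene was called when limma's Benjamini-Hochberg adjusted p over all features was under 0.05. The arrays sat on 3 slides, scanned apart. HFD+APS 2 and 3 were on slide 3, HFD+APS 1 and HFD 1 to 3 on slide 2, and chow 1 to 3 on slide 1. For either high-fat group against chow, slide and diet therefore cannot be told apart. Spots well above background made up 54.1 to 64.5% on HFD+APS arrays, 50.4 to 53.9% on HFD arrays and 61.5 to 68.4% on chow arrays. The 3 comparisons share groups and are not independent.

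In HFD livers, against chow livers, the genes for C6 and the beta chain of C8 fell and the gene for C1s rose, while most of the complement genes stayed within a 2-fold range of chow. That is 3 of 18 complement genes called (1 higher, 2 lower), and over both systems 5 of 36 genes (13.9%), near the 10.9% of all features called in this comparison. The difference was above 0 in 11 of 18 complement and 10 of 18 clotting genes (45.9% of all features). The median difference of the complement genes was 0.06, against -0.04 for all features.

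C6, the protein that joins C5b to begin the pore, read 2.41, 2.66 and 3.14 in HFD livers, against 3.50, 3.40 and 3.99 in chow livers. All 3 HFD livers lay below all 3 chow livers. The log2 difference was -0.89 ± 0.23 (SE), or 1.85-fold lower, with adjusted p = 0.044 in limma. C8b, the chain through which C8 enters the growing pore, read 3.36, 3.1 and 3.70 in HFD livers, against 4.19, 4.12 and 3.97 in chow livers. Here too the groups did not overlap, with a log2 difference of -0.71 ± 0.17 (1.64-fold lower, limma adjusted p = 0.0356). C1s, the protease of the first component that cuts C4 and C2, read 5.49, 5.37 and 5.69 in HFD livers, against 4.89, 5.08 and 5.16 in chow livers. It was higher in every HFD liver, by 0.47 ± 0.12 (1.39-fold, limma adjusted p = 0.0453). Across 19 other settings the adjusted p ran from 0.0137 to 0.114 for C6, from 0.0163 to 0.103 for C8b and from 0.032 to 0.114 for C1s. Leaving out any 1 of HFD 1, HFD 2, HFD+APS 3 or the chow arrays ended the calls of all 3 genes. Leaving out HFD+APS 2 ended those of C6 and C1s, and leaving out HFD 3 that of C1s.

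Markers of liver cell types also differed between HFD and chow livers. Of 14 tested hepatocyte markers, 12 were lower in HFD livers and 2 were above 0 (14.3%, against 45.9% of all features). Serpina1b, which encodes alpha-1 antitrypsin (-0.72 ± 0.12, limma adjusted p = 0.0129), and Tat, tyrosine aminotransferase (-0.73 ± 0.18, limma adjusted p = 0.0418), fell. These calls are 14.3% of the list, near the 10.9% of all features called. Their summed signal was 3657.7 to 4764.2 times the array's upper quartile in HFD+APS livers, 3797.3 to 4390.4 times in HFD livers and 4481.4 to 4837.9 times in chow livers. In this sum HFD+APS 1, at 4764.2, was above every HFD liver. HFD+APS 2 and 3, which were on another slide, were below every HFD liver at 3721.9 and 3657.7. In HFD+APS against HFD livers, 7 of the 14 hepatocyte markers were above 0 (50.1% of all features). Cps1, an enzyme of the urea cycle, rose by 1.11 ± 0.19 (limma adjusted p = 0.0347). It was the 1 call in the list (7.14%, against 1.5% of all features).

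Markers of endothelial and stellate cells were above chow in HFD livers in 14 of 15 (median 0.43), and 4 rose: the collagen genes Col3a1 (1.79 ± 0.30) and Col1a1 (2.08 ± 0.45), and Clec4g (0.80 ± 0.20) and Oit3 (0.92 ± 0.24), with limma adjusted p of 0.0152, 0.0294, 0.0395 and 0.0461. That is 26.7% of the list, where 10.9% of all features were called. Kupffer cell and macrophage markers were above chow in 14 of 15 (median 1.03), 9 of them without overlap. Of all features, 45.9% were above chow and 16.6% were so without overlap. In limma 0 of these markers were called (smallest adjusted p = 0.0506), against 10.9% of all features. At an unadjusted p under 0.05 were 10 of them, against 31.4% of all features. In HFD+APS against HFD livers limma called 0 of either list, against 1.5% of all features. At an unadjusted p under 0.05 were 2 and 0 genes, against 17.9% of all features. The medians of the 2 lists were -0.01 and -0.16. The summed endothelial and stellate signal was 169.5 to 195.2 in HFD+APS livers, 178.9 to 195.7 in HFD livers and 94.5 to 165.2 in chow livers. Of 12 lymphocyte markers, 6 were above and 6 below 0 in HFD against chow livers. Only Cd4 was called (8.33% of the list, against 10.9% of all features), and it fell (-0.72 ± 0.18, limma adjusted p = 0.0405). In bulk liver RNA, fewer cells of a type and less RNA per cell cannot be told apart. What part these cell types had in the differences of C6, C8b and C1s was not tested.

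Of the other complement genes, C4b (5.89, 5.44 and 6.52 in HFD livers, 5.19, 5.27 and 5.28 in chow livers), which encodes C4, did not pass the test at 0.70 ± 0.28 (limma adjusted p = 0.13). HFD livers were above every chow liver, and HFD 3 stood furthest out. C4bp, whose product binds C4b and limits the classical pathway, had a difference of 0.54 ± 0.16, and the mannose-binding lectin gene Mbl2 had 0.40 ± 0.16. Neither passed (limma adjusted p = 0.0675 and 0.132), although in both genes every HFD liver lay above every chow liver. In all, 6 of 18 complement genes had groups that did not overlap, 4 higher and 2 lower, where 38.9% of all features had such groups.

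C3, the hub of all 3 routes of activation, read 10.07, 9.95 and 10.06 in HFD livers, against 10.15, 10.30 and 10.02 in chow livers. The ranges overlapped and the difference was -0.13 ± 0.14 (limma adjusted p = 0.565). For Cfb (factor B), C2, Hc (which encodes C5), C9, C8g, Cfi (factor I, which inactivates C3b), Masp2 and Masp1, the differences lay between -0.10 and 0.12. Mbl1, the other mannose-binding lectin, had 0.32 and C8a, the alpha chain of C8, had -0.27, and neither was called. For 14 of the 18 complement genes the 95% interval of the difference lay within 2-fold either way, and these intervals reached a median of 0.38 to either side. The remaining gene, Cfd, differed most and is described further down.

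Among the clotting genes, F9 and Pros1 rose in HFD livers and none was called lower. Called higher were 2 of 18, where 4.52% of all features were called higher, and the median difference was 0.04. F9 encodes factor IX, the clotting factor lacking in haemophilia B. It read 4.12, 4.03 and 4.21 in HFD livers, against 3.44, 3.46 and 3.53 in chow livers. The gap between the groups was wider than the range within either, and the difference was 0.64 ± 0.09 (1.56-fold, limma adjusted p = 0.0106). F9 was called in all 19 other settings, with log2 differences of 0.53 to 0.69 and adjusted p from 0.00631 to 0.0424. These settings include leaving out each single array in turn.

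Pros1 encodes protein S, the cofactor of activated protein C, and read 2.86, 2.78 and 3.41 in HFD livers, against 2.21, 2.29 and 2.14 in chow livers. Every HFD liver was higher, by 0.80 ± 0.20 (1.74-fold, limma adjusted p = 0.0393). The call was lost without any 1 array other than HFD+APS 1, and adjusted p over the 19 settings ran from 0.0218 to 0.104. Proc, the gene of protein C itself, read 7.41, 7.40 and 7.10 in HFD livers, against 7.55, 7.88 and 7.62 in chow livers. Its groups also did not overlap, in the opposite direction, but -0.38 ± 0.13 did not pass the test (limma adjusted p = 0.0943).

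The 3 fibrinogen genes were not called. Fga (alpha chain) read 7.21, 7.10 and 8.26 in HFD livers, against 6.95, 7.0 and 7.05 in chow livers, a difference of 0.52 ± 0.30 (limma adjusted p = 0.265). HFD 3 alone was more than 1 unit above every chow liver. Fgb (beta chain) read 9.61, 9.32 and 9.92 in HFD livers, against 9.28, 9.24 and 9.10 in chow livers, a difference of 0.41 ± 0.19 (limma adjusted p = 0.18). Its groups did not overlap, and it was called under quantile normalization. Fgg (gamma chain), the brightest clotting gene on average, read 9.44, 9.32 and 9.63 in HFD livers, against 9.52, 9.59 and 9.45 in chow livers. Its groups overlapped, and the difference was -0.06 ± 0.16 (limma adjusted p = 0.829). F13b, a subunit of the fibrin-crosslinking factor XIII, differed by 0.36, Cpb2, whose product slows clot lysis, by 0.46, Plg (plasminogen) by 0.25 and the cofactor gene F5 by 0.23. The contact and other factors F11, F2 (prothrombin), Kng1 (kininogen), F12, F10, Vtn (vitronectin), Klkb1 (prekallikrein) and F7 lay between -0.28 and 0.06. Groups did not overlap for 5 clotting genes higher in HFD livers and 1 lower, where 16.6% and 22.3% of all features did so.

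**Figure D1:**
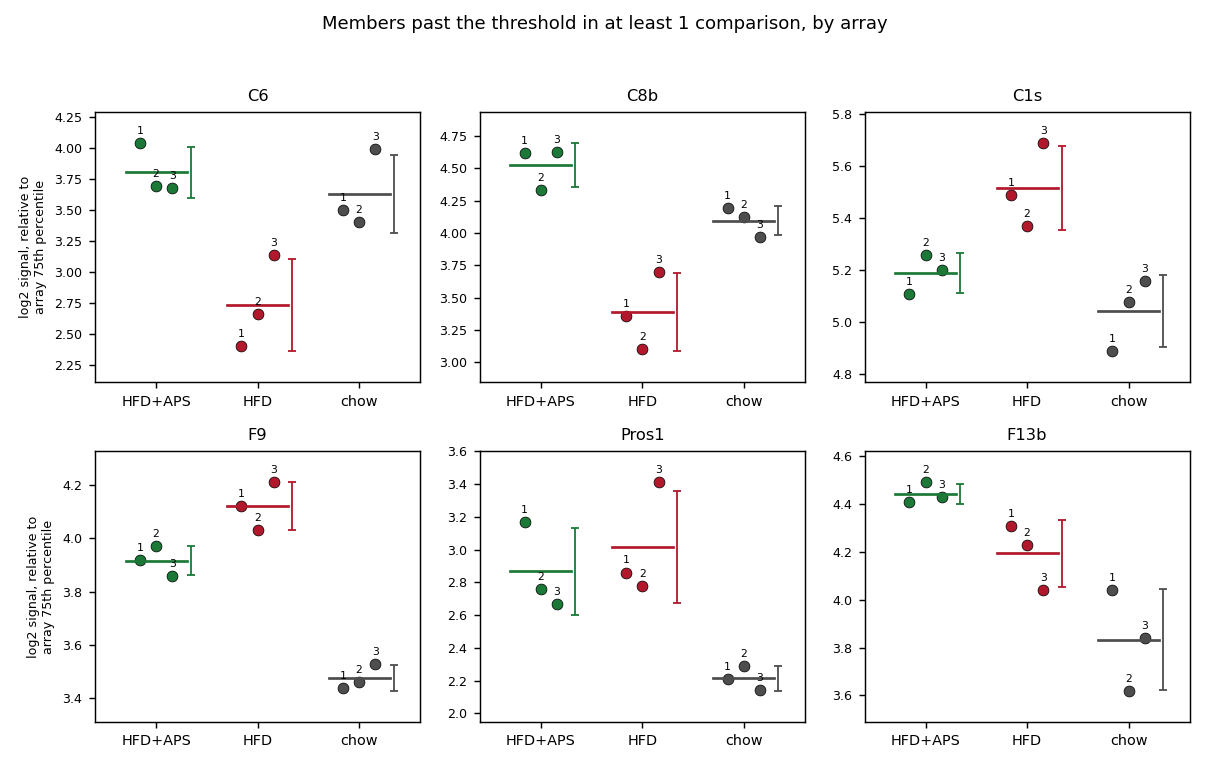
Log2 signal, with 0 at the array's upper quartile, for the 6 genes called in at least 1 comparison. Points are single livers, numbered by replicate, horizontal lines are means of 3 and bars are SD. The HFD livers lie below the other groups for C6 and C8b and above them for C1s and F9.

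Against HFD livers, HFD+APS livers had a higher C8b signal, and C6 had nearly the same difference without passing the test. C8b was the single gene called among the 36 (2.78%), where 1.5% of all features were called (0.476% higher and 1.03% lower). The difference was above 0 in 7 of 18 complement and 9 of 18 clotting genes (50.1% of all features). C8b read 4.62, 4.33 and 4.63 in HFD+APS livers, against 3.36, 3.1 and 3.70 in HFD livers. The lowest HFD+APS liver was above the highest HFD liver, and the difference was 1.14 ± 0.17 (2.21-fold, limma adjusted p = 0.0234). C6 read 4.04, 3.69 and 3.68 in HFD+APS livers, against 2.41, 2.66 and 3.14 in HFD livers. Again no livers overlapped, and the difference was 1.07 ± 0.23 (2.10-fold, limma adjusted p = 0.0651). Over 20 other settings C8b kept its direction, from 1.0 to 1.30, and passed in 12 of them (adjusted p from 0.00657 to 0.182). C6 ranged from 0.91 to 1.31 and passed in 3. The call of C8b was lost without HFD 1, HFD 2, HFD+APS 2 or HFD+APS 3, each left out alone.

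Within slide 2, which held HFD+APS 1 and the 3 HFD arrays, C8b differed by 1.24 and C6 by 1.31, as much as across slides. With slide as a fixed block, in a fit without the chow arrays, 0 of the 36 genes were called (0.085% of all features). That estimate rests on HFD+APS 1 alone. A fit of the 2 groups without slide also called 0 (0.142% of all features). The other components of the pore among the 36 genes, which do not include C7, moved less. C8a differed by 0.25 ± 0.30, C8g, the gamma chain of C8, by 0.06, C9 by -0.12 and Hc by -0.06. HFD livers differed widely in C8a (5.27, 4.85 and 6.12, against 5.91, 5.50 and 5.58 in HFD+APS livers), and the HFD range enclosed the HFD+APS values.

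Masp1, a protease of the lectin route, read 4.33, 4.45 and 4.42 in HFD+APS livers, against 4.16, 3.99 and 4.16 in HFD livers. HFD+APS livers were all higher, but 0.29 ± 0.10 did not pass (limma adjusted p = 0.169). The complement genes above chow in every HFD liver had differences below 0 here without passing the test: C1s -0.32 ± 0.12, C4bp -0.42 ± 0.16, C4b -0.34 ± 0.28 and Mbl2 -0.30 ± 0.16. The same HFD livers enter both comparisons, so picking genes for high HFD values favours differences below 0 here. These differences are therefore no separate evidence of a reversal. Likewise, picking genes for low HFD values, such as C6 and C8b, favours differences above 0 here. Of the remaining complement genes other than Cfd, C2, Mbl1, Masp2, C3, Cfb and Cfi lay between -0.17 and 0.24. Groups did not overlap for 3 complement genes higher in HFD+APS livers (C8b, C6 and Masp1) and 4 lower (Cfd, C4bp, C1s and Mbl2), where 12.6% and 11.8% of all features did so. The median complement difference was -0.09, against 0 for all features.

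None of the 18 clotting genes was called between HFD+APS and HFD livers in limma, and 3 (16.7%) were at an unadjusted p under 0.05, as were 17.9% of all features. The largest differences were in F11 and Klkb1, neighbouring genes for the contact-phase proteases factor XI and prekallikrein, and in F7, the protease that starts clotting with tissue factor. F11 read 3.42, 4.17 and 4.38 in HFD+APS livers, against 3.21, 3.38 and 3.19 in HFD livers (0.73 ± 0.24, limma adjusted p = 0.171). Klkb1 read 3.49, 4.16 and 4.10 in HFD+APS livers, against 3.43, 3.49 and 3.17 in HFD livers (0.55 ± 0.18, limma adjusted p = 0.176). In both genes HFD+APS 2 and 3 were high and HFD+APS 1 was close to the HFD livers. Those 2 arrays shared slide 3, and within slide 2 HFD+APS 1 exceeded the HFD mean by 0.16 for F11 and 0.13 for Klkb1. Without HFD+APS 1, both were called (limma adjusted p = 0.023 for F11 and 0.0254 for Klkb1). Slide and liver cannot be told apart for this pair.

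F7 read 2.89, 2.69 and 2.95 in HFD+APS livers, against 1.84, 2.40 and 2.45 in HFD livers. No livers overlapped, HFD 1 was the lowest of the 9, and the difference of 0.61 ± 0.17 did not pass (limma adjusted p = 0.127). Within slide 2 it was 0.66. F10, its substrate, differed by 0.04. F9 was lower in every HFD+APS liver (3.92, 3.97 and 3.86) than in any HFD liver (4.12, 4.03 and 4.21), but -0.20 ± 0.09 did not pass (limma adjusted p = 0.298). Proc was 7.58, 7.51 and 7.50 in HFD+APS livers, above all HFD livers, with a difference of 0.22 ± 0.13. F13b had 0.25 ± 0.13, and the other clotting genes lay between -0.30 (Cpb2 and F2) and 0.06 (F12 and F5). The median was 0.01, and 16 of the 18 intervals lay within 2-fold.

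**Figure D2:**
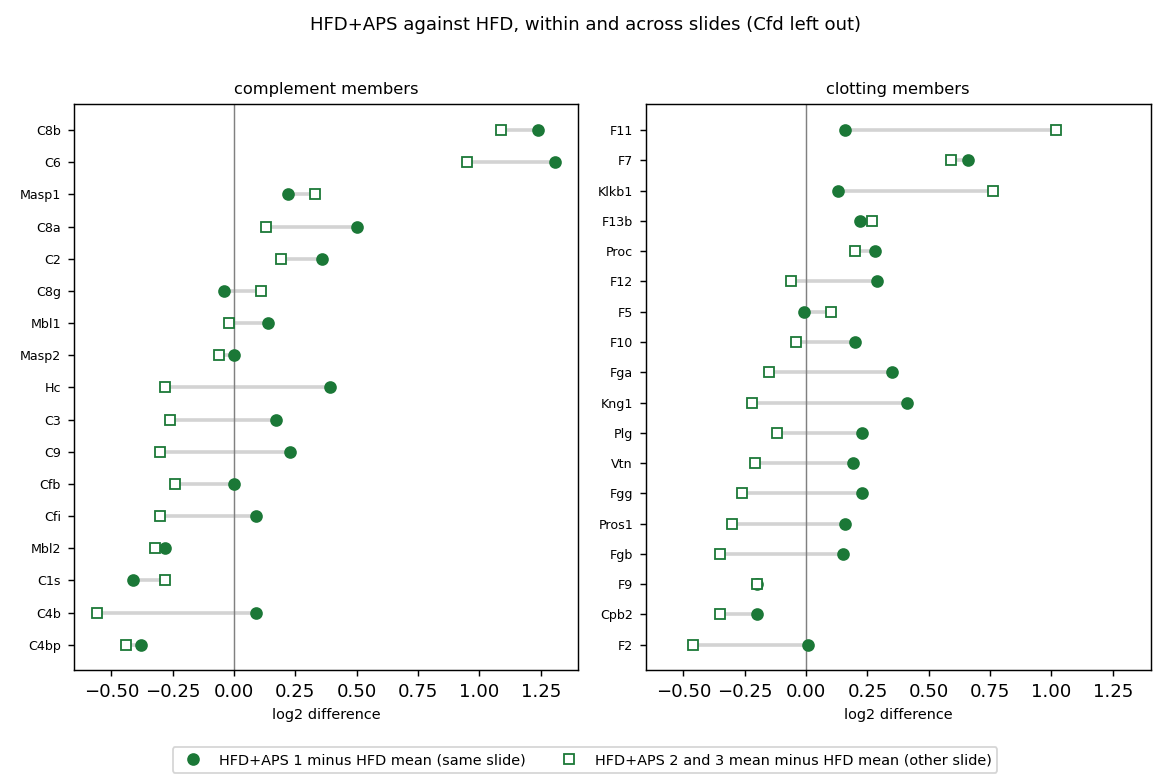
Log2 differences from the HFD mean for HFD+APS 1, on the slide of the HFD arrays, and for the mean of HFD+APS 2 and 3, on another slide; each line is 1 gene and Cfd is left out. C8b and C6 lie near 1 or above in both, whereas F11 and Klkb1 lie near 0 for HFD+APS 1 alone.

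Over all 36 genes the within-slide difference had the same sign as the pooled one for 11 of 18 complement and 10 of 18 clotting genes. The median within slide 2 was 0.12 for complement and 0.19 for clotting genes, against pooled medians of -0.09 and 0.01. HFD+APS 1 was above HFD+APS 2 and 3 in 24 of the 36 genes (66.7%, against 39.5% of all features).

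HFD+APS livers, against chow livers, had F9 and F13b called higher and 0 of 18 complement genes called (2, or 11.1%, at an unadjusted p under 0.05, against 25.1% of all features). That is 2 of 36 genes (5.56%), where 3.45% of all features were called, 0.952% higher and 2.49% lower. The difference was above 0 in 11 of 18 genes of each system (46% of all features). F9 (3.92, 3.97 and 3.86 in HFD+APS livers, 3.44, 3.46 and 3.53 in chow livers) was 0.44 ± 0.09 higher (1.36-fold, limma adjusted p = 0.0462). F13b read 4.41, 4.49 and 4.43 in HFD+APS livers, against 4.04, 3.62 and 3.84 in chow livers, and was 0.61 ± 0.13 higher (1.52-fold, limma adjusted p = 0.047). In both genes the groups did not overlap. F9 passed in 4 and F13b in 6 of 19 other settings, and leaving out any of the chow arrays, HFD 1, HFD 2, HFD+APS 2 or HFD+APS 3 ended both calls. Leaving out HFD 3 or HFD+APS 1 ended neither.

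F11 and Pros1 had larger differences of 0.80 ± 0.24 and 0.66 ± 0.20 between HFD+APS and chow livers but did not pass (limma adjusted p = 0.0954 and 0.0938). Pros1 read 3.17, 2.76 and 2.67 in HFD+APS livers, all above the 2.21, 2.29 and 2.14 of chow livers. In F11, chow livers read 3.33, 2.94 and 3.31, all below the lowest HFD+APS liver at 3.42. For Klkb1, the chow values of 3.47, 3.57 and 3.54 lay around HFD+APS 1. Masp1 was at 4.03, 4.06 and 3.97 in chow livers, below each HFD+APS liver (0.38 ± 0.10, limma adjusted p = 0.0646).

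C8b and C6, called lower in HFD livers, had higher means in HFD+APS livers than in chow livers, but neither passed this test. C8b exceeded chow in each HFD+APS liver by a mean of 0.43 ± 0.17 (limma adjusted p = 0.158), and C6 differed by 0.18 ± 0.23 (limma adjusted p = 0.665). The 95% intervals were within 2-fold for 17 of 18 complement and 15 of 18 clotting genes. Groups did not overlap for 5 complement and 7 clotting genes, all higher in HFD+APS livers, where 30.9% of all features were so separated, 12.7% upward and 18.1% downward. Medians were 0.09 for complement and 0.24 for clotting genes, against -0.03 for all features.

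**Figure D3:**
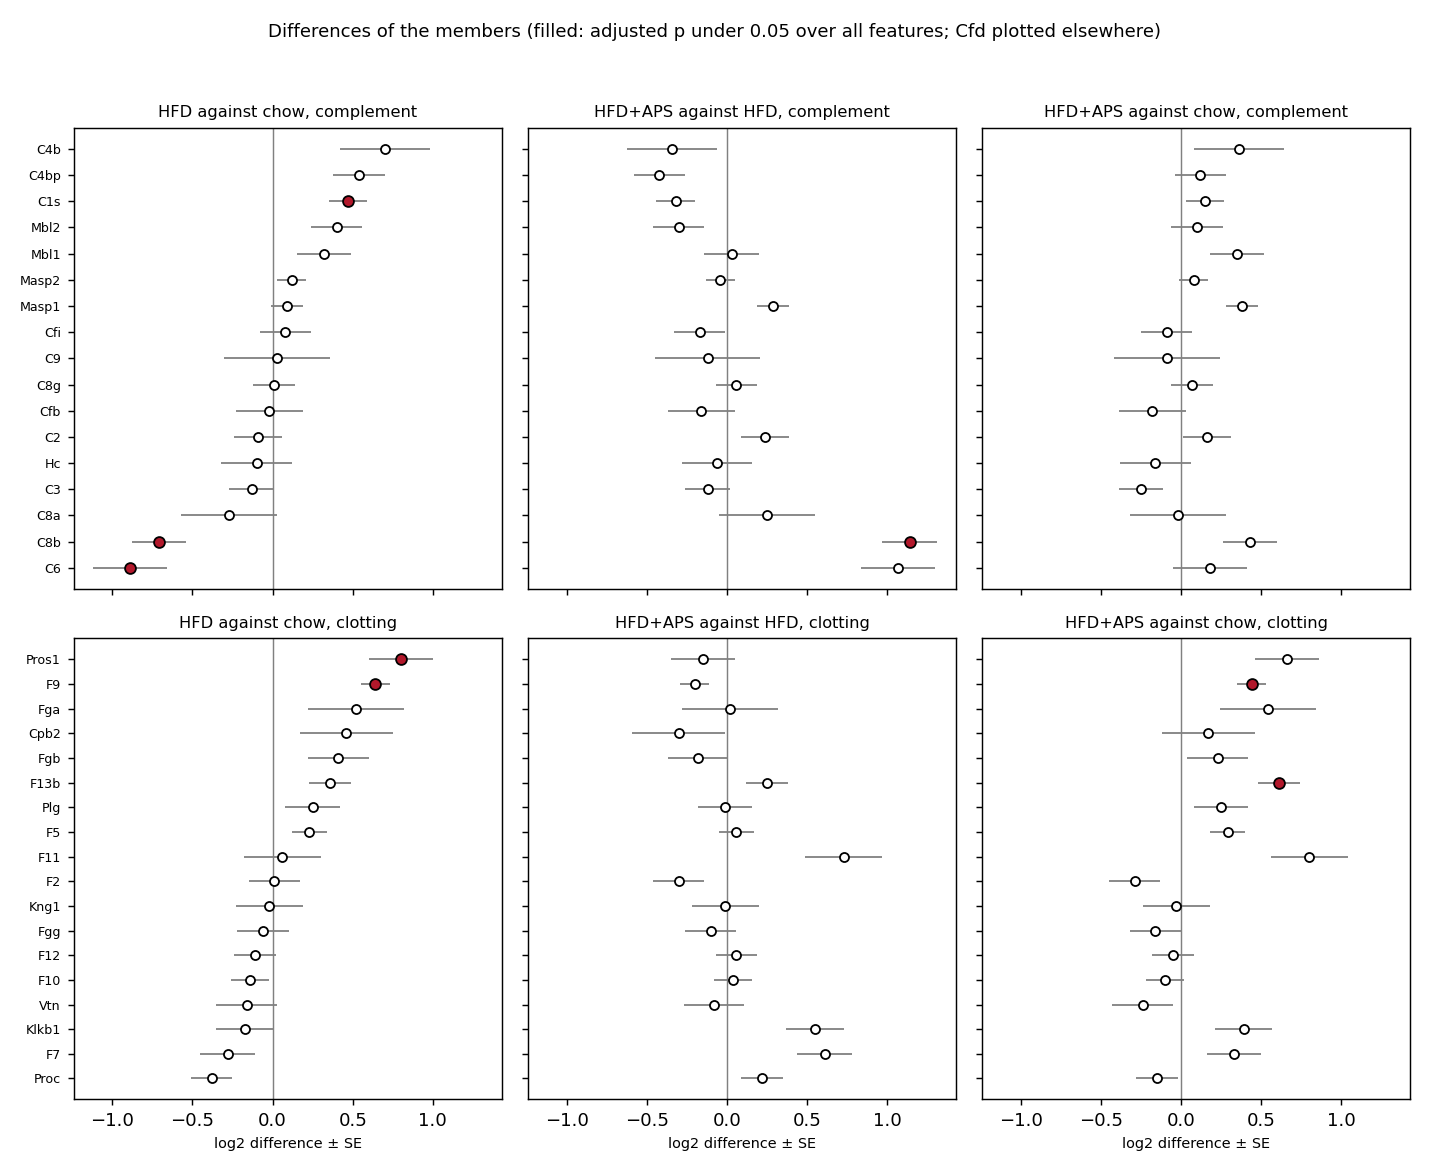
Log2 difference ± SE in each comparison for the complement genes other than Cfd (upper panels) and the 18 clotting genes (lower panels), ordered by HFD against chow. Filled points passed adjusted p under 0.05 over all features. C6 and C8b lie furthest left in HFD against chow and furthest right in HFD+APS against HFD among the complement genes.

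Cfd, the gene of factor D, the protease that cuts factor B, varied most. It read -2.16, -1.60 and -1.59 in HFD+APS livers, 4.41, 1.42 and 4.18 in HFD livers and 2.44, -2.28 and -3.48 in chow livers. HFD+APS livers were uniformly low and HFD livers high, while chow 1 lay among the HFD livers and the other chow livers did not. HFD exceeded chow by 4.44 ± 1.44 (limma adjusted p = 0.0814), and HFD+APS differed from HFD by -5.12 ± 1.44 (34.8-fold lower, limma adjusted p = 0.126). Neither passed with all arrays. Without chow 1, both did: the differences were 6.22 for HFD against chow (limma adjusted p = 0.0234) and -5.12 for HFD+APS against HFD (limma adjusted p = 0.0435). Leaving out any other single array gave no call: HFD against chow ran down to 3.26 without chow 3 (limma adjusted p = 0.198) and was 3.86 without chow 2 and 5.40 without HFD 2, and HFD+APS against HFD ran from -6.08 without HFD 2 to -4.59 without HFD 1. HFD+APS against chow was 1.09 without chow 1 and -0.68 with it, neither of them called. Within slide 2, HFD+APS 1 differed from the HFD mean by -5.5.

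Markers of fat cells were read beside Cfd, since that cell type is its best known source. Of 8 such markers 3 were tested and 5 were too dim: Adipoq (adiponectin), Lep (leptin), Retn, Plin1 and Adrb3. Adipoq was well above background on chow 1 alone, at -1.02, against -5.73 to -4.42 in HFD+APS livers, -5.75 to -5.31 in HFD livers, and -5.31 and -5.00 in the other chow livers. Plin1, a lipid droplet protein of fat cells, was likewise measurable on chow 1 alone (-3.66). Chow 1 thus had both a high Cfd signal and measurable Adipoq, and the HFD livers had high Cfd with Adipoq not well above background. Cidea, a lipid droplet protein of brown fat that fatty liver also makes, read -1.72, -1.53 and -1.74 in HFD+APS livers, 6.10, 2.98 and 4.11 in HFD livers and -2.63, -3.08 and -2.84 in chow livers. It rose in HFD against chow (7.25 ± 0.65, limma adjusted p = 0.0019) and fell in HFD+APS against HFD (-6.06 ± 0.65, limma adjusted p = 0.01). Plin4, another lipid droplet protein, fell in HFD+APS against HFD (-2.36 ± 0.33, limma adjusted p = 0.0214) and in HFD+APS against chow (-1.61 ± 0.33, limma adjusted p = 0.043). Fabp4 was not called. The summed signal of the 3 tested markers was 6.3 to 7.7 in HFD+APS livers, 24.0 to 104.1 in HFD livers and 11.9 to 14.6 in chow livers, in multiples of the array's upper quartile. The part of fat cells in the Cfd values was not tested.

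**Figure D4:**
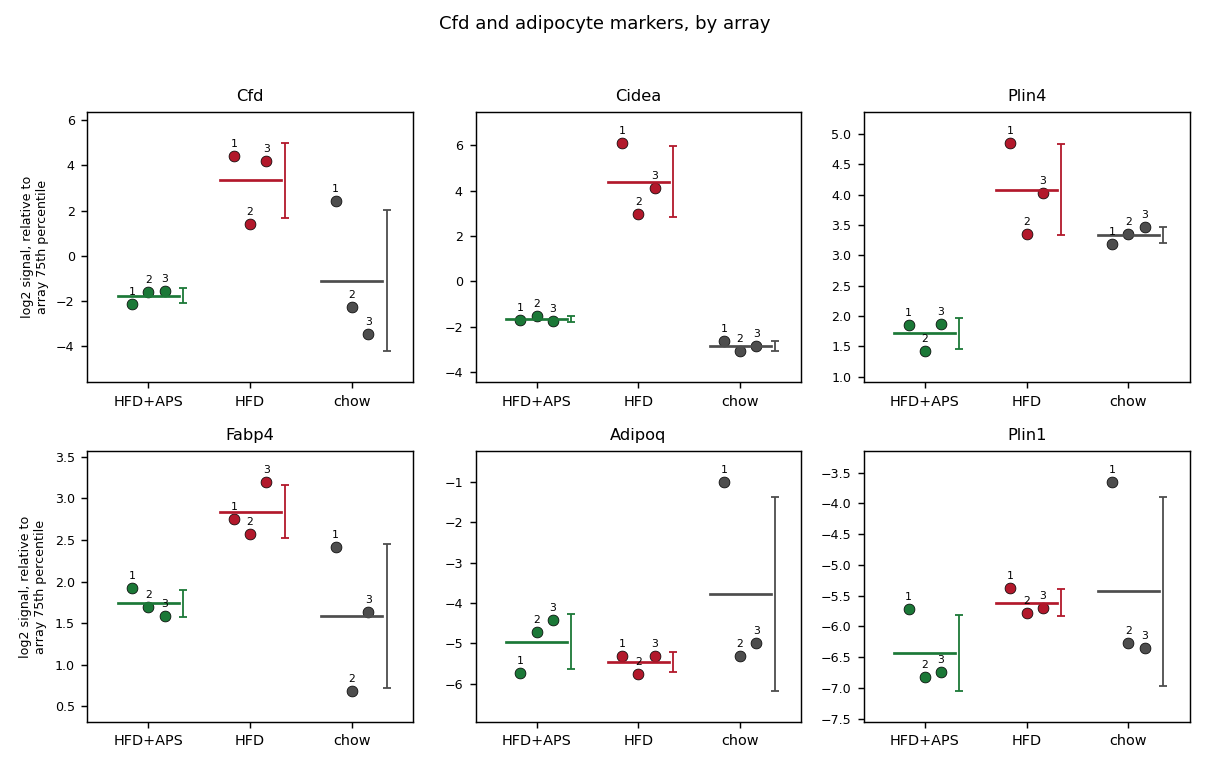
Log2 signal, with 0 at the array's upper quartile, for Cfd and 5 markers of fat cells, by liver, with means of 3 (lines) and SD (bars). Cfd and Cidea are high in the HFD livers, and chow 1 stands apart from the other chow livers in high Cfd and Adipoq.

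The genes also moved together from liver to liver within a group. HFD 3 was the highest of the 9 arrays for 16 of the 36 genes, 8 in each system, and it exceeded both other HFD livers in 27 (75%), where 31.2% of all features showed that order. HFD 2 was the lowest of the HFD livers in 26 genes (72.2%, against 30.5% of all features). In Cpb2, for example, HFD 3 read 7.95 and the other HFD livers 6.90 and 6.69, with 6.64 to 6.83 in chow livers. In C9, the last component of the pore, HFD 3 read 3.77 and the others 2.92 and 2.54. The median SD of complement genes was 0.16 among HFD+APS livers, 0.31 among HFD livers and 0.12 among chow livers, and HFD had the widest spread in 14 of 18. For clotting genes it was 0.23 among HFD+APS livers, 0.17 among HFD livers and 0.10 among chow livers, and HFD had the widest spread in 9 of 18.

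Other acute phase genes moved with HFD 3. The acute phase genes outside the 2 systems, 17 in number, had a median level in HFD 3 of 1.96 above their own means over the 9 arrays, and HFD 1 and HFD 2 had 0.22 and -0.45. Saa1, serum amyloid A, read 10.17 in HFD 3, and 7.20 and 5.62 in the other HFD livers. The summed signal of these genes was 1422.3 to 3480.1 in HFD+APS livers, 1625.1 to 6806.1 in HFD livers and 1533.7 to 4111.3 in chow livers, so the groups overlapped. Gene by gene, 15 of 17 were above chow in HFD livers (median 1.06), and 3 were called (17.6%, against 10.9% of all features). Steap4 (1.92 ± 0.42, limma adjusted p = 0.0293) and Il6st (0.66 ± 0.17, limma adjusted p = 0.0445) rose and Socs3 fell (-0.57 ± 0.15, limma adjusted p = 0.0478). Il6st and Socs3 act in the signalling of this response and are not secreted acute phase proteins. Saa1 was not called. In HFD+APS against HFD livers, 16 of 17 were below 0 (median -0.71), and limma called 0, against 1.5% of all features. At an unadjusted p under 0.05 was 1 gene, against 17.9% of all features. HFD+APS 1 and chow 2 had the highest sum of their groups. Neutrophil markers were also highest in HFD 3: the 5 of 12 that were tested summed to 49.9 there, 4.7 and 7.3 in the other HFD livers, 2.8 to 8.9 in HFD+APS livers and 1.5 to 6.5 in chow livers. Of 6 further neutrophil genes on the array, too dim to be tested, Ltf, Mmp8 and Cxcr2 each had a probe well above background in HFD 3 that read highest there (-2.92, -3.10 and -2.92). That Ltf probe was also well above background on chow 3. The other Ltf probe read highest in HFD+APS 1 and was well above background on 0 arrays. The other Cxcr2 probe was well above background on HFD+APS 3 alone. Of the 8 probes of these 6 genes, 4 read highest in HFD 3. Ngp and Camp were well above background in chow livers alone, and Elane on 0 of 9 arrays. What part these levels had in the values of HFD 3 was not tested. Without HFD 3, 3 genes (C6, C8b and F9) were called in HFD against chow (8.33%, against 4.11% of all features), and C8b in HFD+APS against HFD (2.78%, against 0.561%).

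**Figure D5:**
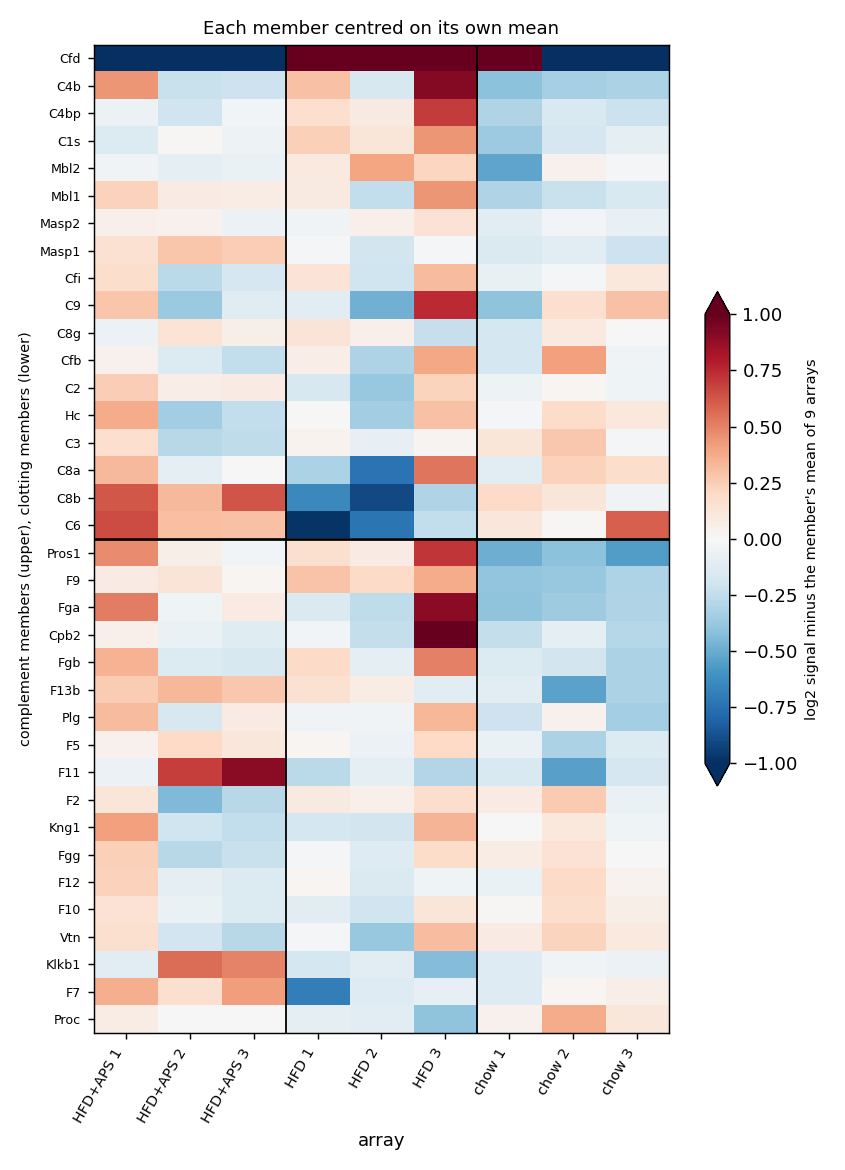
Log2 signal of each gene minus its own mean over the 9 arrays, complement genes above the black line and clotting genes below it; colours saturate at 1 unit. HFD 3 is red for most genes, HFD+APS 1 is often above its group, and C6 and C8b are blue in the HFD livers.

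Several of the genes lie next to each other in the genome, with 0 coding genes between them in RefSeq (GRCm38.p6): Fgg, Fga and Fgb on chromosome 3, C8b and C8a on chromosome 4, F7 and F10 and also F11 and Klkb1 on chromosome 8, and C2 with Cfb on chromosome 17. Neighbours did not always share a pattern. C8b differed by -0.71 between HFD and chow livers and C8a by -0.27, and by 1.14 and 0.25 between HFD+APS and HFD livers. F7 and F10 differed by 0.61 and 0.04 between HFD+APS and HFD livers. F11 and Klkb1 had the like order of the 3 HFD+APS livers given above. These are descriptions of single pairs, with no test of the pairs.

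The genes for C1r and C4 have near-identical copies, so their signals are less certain. RefSeq lists C1r as a synonym of C1ra, whose probe read 5.07, 4.99 and 5.13 in HFD livers, against 5.48, 5.55 and 5.48 in chow livers. It was lower in each HFD liver, with a difference of -0.44 ± 0.11 (limma adjusted p = 0.0464 over all probes), opposite to C1s, its substrate. Its relatives C1rb (-0.14 ± 0.09) and C1rl (-0.02 ± 0.10) were not called (limma adjusted p = 0.327 and 0.936). C4a, the copy of C4b, differed by 0.95 ± 0.33 (limma adjusted p = 0.0986). Of a pair of probes for C4bp-ps1, a pseudogene copy of C4bp, the brighter rose in HFD livers by 0.79 ± 0.17 (limma adjusted p = 0.0279) and the other, at 0.46 ± 0.23, was not called.

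A second probe was present for 11 of the genes. For the called genes F9, Pros1 and C1s, the dimmer probe gave the same direction in HFD against chow livers with a smaller difference: 0.41 for F9, 0.44 for Pros1 and 0.31 for C1s (limma adjusted p over all probes = 0.0509, 0.188 and 0.132). None of these passed. Probes disagreed in sign for Masp1, whose 4 probes gave 0.09, -0.13, 0.46 and -0.45 between HFD and chow livers, and for C3, C2 and Kng1, and none of those passed either. In limma's fit of all probes, neither gene called in HFD+APS against chow passed (adjusted p = 0.0531 for F9 and 0.0525 for F13b). C6, C8b and F13b each had 1 probe, so their calls rest on it. The Cpb2 probe on the opposite strand was well above background on 0 of 9 arrays.

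Genes of both systems outside the 36, from a list of regulators and receptors of complement and a list of clotting and clot lysis genes, were read in the same fit. Of 22 tested complement genes outside the 36, 1 rose and 1 fell in HFD against chow livers (9.09%, against 10.9% of all features). In HFD+APS against HFD 1 rose (4.55%, against 1.5% of all features), and in HFD+APS against chow 1 rose (4.55%, against 3.45%). Susd4, a membrane inhibitor of complement, was low in HFD livers, as C8b was. It read 3.12, 3.03 and 2.99 in HFD+APS livers, 1.34, 2.12 and 1.74 in HFD livers and 2.79, 2.83 and 2.71 in chow livers. It fell in HFD against chow (-1.04 ± 0.18, limma adjusted p = 0.0156) and rose in HFD+APS against HFD (1.31 ± 0.18, limma adjusted p = 0.0191). The same HFD livers enter both of these differences. Cd59a, which blocks the pore on the body's own cells, rose in HFD livers (3.90, 3.83 and 3.85) against chow livers (3.43, 3.27 and 3.56), by 0.44 ± 0.11 (limma adjusted p = 0.0458). Cpn2, the regulatory subunit of the carboxypeptidase that inactivates C3a and C5a, rose in HFD+APS livers (5.26, 5.31 and 5.14) against chow livers (4.53, 4.53 and 4.67), by 0.66 ± 0.14 (limma adjusted p = 0.0486). The medians were 0.42, -0.12 and 0.31 in the 3 comparisons. Of 27 clotting and lysis genes outside the 36, 0 were called in limma in any comparison. Of all features, 10.9, 1.5 and 3.45% were called in the 3 comparisons. The smallest adjusted p in limma was 0.0741 for HFD against chow, 0.0777 for HFD+APS against HFD and 0.0881 for HFD+APS against chow. At an unadjusted p under 0.05 were 3, 4 and 8 of these genes, against 31.4, 17.9 and 25.1% of all features. Medians of these genes were 0.21, -0.21 and 0.09. Of 13 liver transcription factors, limma called 0 (smallest adjusted p = 0.198, 0.545 and 0.341), and 0 had an unadjusted p under 0.05. The shares of all features are those just given.

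C6 and C8b, on different chromosomes, were low in HFD livers and higher in both other groups, and so their promoter windows are shown. The same HFD livers enter both differences of each gene, so these are not independent. The windows run from 250 bases before to 50 after the gene start (RefSeq, GRCm38.p6). Capitals mark matches to the short motifs searched on both strands.
C6, chr15:4726960-4727259 (+): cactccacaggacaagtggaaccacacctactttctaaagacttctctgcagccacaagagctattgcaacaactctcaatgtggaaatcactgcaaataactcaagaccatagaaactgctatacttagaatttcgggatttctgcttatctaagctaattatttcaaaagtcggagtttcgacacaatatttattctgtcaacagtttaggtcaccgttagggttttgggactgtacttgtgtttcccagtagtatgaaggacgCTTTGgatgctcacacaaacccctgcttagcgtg
C8b, chr4:104766067-104766366 (+): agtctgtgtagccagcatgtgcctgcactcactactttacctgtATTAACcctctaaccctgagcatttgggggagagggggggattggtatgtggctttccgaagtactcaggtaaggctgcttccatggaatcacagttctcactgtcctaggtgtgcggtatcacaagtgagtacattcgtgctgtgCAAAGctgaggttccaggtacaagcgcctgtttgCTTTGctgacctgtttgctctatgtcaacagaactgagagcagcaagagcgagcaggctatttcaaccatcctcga
The motifs were TTCNNNGAA (STAT5 type), GTTAAT (part of an HNF1 site), CAAAG (core of an HNF4 site) and TTGCNNAA (C/EBP type), which liver transcription factors are known to bind. The C8b window held 1 match to GTTAAT and 2 to CAAAG, and the C6 window held 1 match to CAAAG. No match to TTCNNNGAA or TTGCNNAA lay in either, which says only that these letters are not in these windows. Of 32851 windows in the table, 7.1% held GTTAAT, 53.9% CAAAG, 8.3% TTCNNNGAA and 10.8% TTGCNNAA. Promoter windows were found for 27 of the genes, 28 windows in all, of which 32.1% held GTTAAT, 71.4% CAAAG, 25% TTCNNNGAA and 28.6% TTGCNNAA. A match is a description of the sequence and not a binding site.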

How the data were processed

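Per the labels' protocols, liver total RNA was checked for integrity, column-cleaned with DNase, labelled with Cy3 and hybridised to 1-colour Agilent arrays. Scanning used Agilent Feature Extraction, version 10.7 per the submitters' processing notes and 10.7.1.1 per the file headers. The deposited intensity of each spot is, per the file headers, the processed signal: background-subtracted, detrended and not normalised between arrays. The deposited flags mark, per the file headers, spots that are well above background, saturated or outliers. The authors' deposited table of the same arrays holds log2 values, whose normalisation step is not given in the sources used here; it served as an alternative. The notes also name limma, without its role.

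Each array held 45018 spots, 1639 of them controls. Here, controls and outlier spots were left out, spots were averaged to 41174 probes in log2, and the 75th percentile of its array was taken off each value. Probes well above background on at least 3 of 9 arrays (26473) entered, with the brightest probe per gene name (17647 features, 5 missing values). limma 3.58.1 in R 4.3.3 (lmFit, eBayes; with data.table at version 1.17.8 and statmod at 1.5.0) fitted the 3 groups in 1 model, with 6 residual and 2.21 prior degrees of freedom. The code was tested on simulated data. The number of arrays limits the precision.

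Named with values of single arrays were the genes called in any comparison and the 3 complement and 3 clotting genes with the largest differences in each. The brightest gene of each system on average (C3 and Fgg) was named in the same way. A few others, Fgb among them, were added after their values were seen. From other lists, called genes were named. The members and lists were chosen with earlier results of these data known. By symbol, 35 genes matched RefSeq (GRCm38.p6); C1s is there a synonym of C1s1. Probe positions are on mm9, per the file headers. Alternatives were quantile normalization, normexp (offset 50), other filters on dim probes, the mean of a gene's probes, the authors' values, slide as a block, array weights, a replicate block, fits of 2 groups and leaving out each array.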

Additional observations from a re-analysis of the deposited data

How the results depend on the processing

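The calls depended on the setting. There were 3 livers per group, slide was tied to diet and livers differed in acute phase genes. What part each of these had in that dependence was not tested. The direction of every called gene held in all settings run, and F9 in HFD against chow passed in each of them. In HFD against chow, 5 of the 36 genes (13.9%, against 10.9% of all features) became 3 with the mean of a gene's probes and 3 with the authors' values (8.33%, against 11% and 11.1%), 2 in a fit of the 2 groups alone (5.56%, against 9.87%), and 1 each with dim probes kept and with slide as a random block (2.78%, against 2.9% and 3.87%). In HFD+APS against HFD, 1 gene (1.5% of all features) became 2 under normexp and 2 when all 9 arrays had to be above background (5.56%, against 1.52% and 1.9%), 5 with array weights (13.9%, against 6.94%), and 0 without a filter, in a fit of the 2 groups alone or with slide as a fixed block (0.289, 0.142 and 0.085% of all features). In HFD+APS against chow, 2 genes (3.45% of all features) became 6 with array weights (16.7%, against 18%), 1 with the mean of probes (against 3.11%) and 0 under quantile normalization, without a filter, with the authors' values, with slide as a random block or with 2 groups alone (3.13, 0.8, 2.95, 0.884 and 1.92% of all features).

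Leaving out each array in turn gave 1 to 5 genes in HFD against chow (1 to 3 in the fits other than that without HFD+APS 1), 0 to 3 in HFD+APS against HFD and 0 to 4 in HFD+APS against chow, and 365 to 2693, 51 to 578 and 21 to 1603 features of all 17647. Over all settings these last counts ran from 365 to 3109, 15 to 1224 and 21 to 3184. Same-numbered livers correlated in their deviations from the group mean by -0.175 to 0.163, so the numbers do not pair them; with a replicate block, 1, 0 and 0 genes were called in the 3 comparisons, against 7.47, 0.465 and 1.67% of all features.

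Signs were followed over all settings only for the called genes and those with the largest differences. Among these genes, signs that turned were all of differences not called. Fga in HFD+APS against HFD (0.02) was -0.04 under quantile normalization, -0.01 under normexp, -0.04 in the authors' values, -0.14 without HFD 1, -0.20 without HFD 2 and -0.15 without HFD+APS 1, within -0.20 to 0.39 over the arrays left out. Pros1 in that comparison (-0.15) was 0.16 with slide as a fixed block and 0.05 without HFD 3 (-0.30 to 0.05 over the arrays left out). With that block, which rests on HFD+APS 1 alone, the sign held for 11 of 18 complement and 10 of 18 clotting genes. Signs also turned there for genes not followed further, such as Fgb (-0.18 became 0.15), C3 (-0.12 became 0.17) and C4b (-0.34 became 0.09). The complement median turned from -0.09 to 0.12, and the clotting median rose from 0.01 to 0.19. Masp1 in HFD against chow was -0.01 with the mean of probes, and F11 was -0.06 without chow 2 (-0.06 to 0.13). In HFD+APS against chow, C6 was -0.01 and Cfd 0.24 with array weights, and Cfd was 1.09 without chow 1 (-1.87 to 1.09). Of features called in HFD+APS against chow 27.6% were higher, and 41.8% under normexp; without chow 2, HFD+APS 3 or HFD+APS 2 it was 4.8, 6.1 or 9.5%. Over all settings the share ran from 35.4 to 50.8% in HFD against chow and from 26.8 to 53.3% in HFD+APS against HFD. The causes were not tested.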
